A study of Mus musculus with 6 samples.

Results

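The 49 genes described here encode the machinery of mitosis: the kinases and cyclins that start it, the spindle checkpoint, the kinetochore, the spindle motors and the proteins of cytokinesis. They were taken by name from a list of mitotic spindle and kinetochore genes. All 49 were found among the 23420 gene symbols counted, and all 49 passed the filter on low counts that left 14388 genes for testing. RNA-seq was run on splenic dendritic cells of C57BL/6 mice in 2 groups, TBK1-DKO and WT, with 3 libraries each. TBK1 is a serine/threonine kinase of innate immune signalling. The labels do not spell out DKO, name no allele or Cre driver, and do not say how the dendritic cells were purified or whether libraries came from separate animals, so the p-values measure the spread between these libraries, which may be technical. The age of the mice is given as 8 weeks in one label field and as 10 weeks in another. Levels are given as CPM, read counts scaled to a common library size. In such bulk samples, more cells of a cycling type and more RNA per cell cannot be told apart.

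A cell enters mitosis when CDK1, held by a B-type cyclin, is freed of inhibitory phosphates by CDC25 phosphatases. Chromosomes then attach to spindle microtubules through kinetochores, and the spindle checkpoint holds the anaphase-promoting complex (APC/C), a ubiquitin ligase, until the last kinetochore is attached. The APC/C, with its activator CDC20, then marks securin and the cyclins for destruction, separase cuts cohesin, and the midzone proteins guide the cell to divide. Most of these genes are transcribed late in the cell cycle. Many of their promoters carry the cell cycle genes homology region (CHR), a short element bound by the DREAM complex in resting cells and by B-MYB and FOXM1 complexes in cycling ones, often close to CCAAT boxes bound by NF-Y.

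RefSeq promoter windows (GRCm38.p6, 250 bases before to 50 after the start of transcription) were matched for 41 of the 49 genes, which have 43 windows. The lines that follow give 140 bases of 5 of them, 5′ to 3′ on the strand of the gene. Ccnf, Ube2c, Cdc20 and Kif18b were taken as the genes with the smallest p-values among those whose window holds a CHR, and Pttg1, the gene that went the other way from the rest, was added after its values were seen. Capitals mark the CHR letters TTTGAA or TTCGAA and the letters CCAAT, each on either strand, so that TTCAAA and ATTGG are the same letters read from the opposite strand. The Ccnf stretch lies at chr17:24251413-24251552 on the minus strand and holds a CHR at each end. The Ube2c stretch lies at chr2:164769771-164769910 on the plus strand, with its CHR near the start of transcription and CCAAT boxes upstream. The Cdc20 stretch, at chr4:118437342-118437481 on the minus strand, and the Kif18b stretch, at chr11:102925111-102925250 on the minus strand, also hold CCAAT upstream of a CHR. The Pttg1 stretch, at chr11:43425982-43426121 on the minus strand, holds neither. The RefSeq start used for it lies inside the gene as annotated by GENCODE (chr11:43420250-43426251). The bases before that GENCODE 5′ end were not scanned, so the stretch does not show what the promoter there holds.
Ccnf: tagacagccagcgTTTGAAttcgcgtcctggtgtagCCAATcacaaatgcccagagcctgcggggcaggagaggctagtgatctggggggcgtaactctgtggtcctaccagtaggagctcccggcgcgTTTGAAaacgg
Ube2c: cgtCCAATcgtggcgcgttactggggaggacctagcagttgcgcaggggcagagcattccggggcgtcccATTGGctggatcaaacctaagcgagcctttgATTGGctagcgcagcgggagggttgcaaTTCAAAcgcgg
Cdc20: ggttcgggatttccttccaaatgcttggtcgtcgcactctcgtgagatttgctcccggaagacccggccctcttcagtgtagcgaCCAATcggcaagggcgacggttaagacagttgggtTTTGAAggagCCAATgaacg
Kif18b: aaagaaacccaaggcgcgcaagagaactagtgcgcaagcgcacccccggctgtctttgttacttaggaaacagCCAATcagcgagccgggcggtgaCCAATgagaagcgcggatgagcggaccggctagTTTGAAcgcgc
Pttg1: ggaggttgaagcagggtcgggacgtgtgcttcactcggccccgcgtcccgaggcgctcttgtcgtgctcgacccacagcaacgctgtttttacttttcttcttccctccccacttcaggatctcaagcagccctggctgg

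Across the 43 windows, 35 (81.4%) held TTTGAA or TTCGAA, against 19.2% of all 32851 RefSeq windows and 14.2% of those of genes tested. Within 50 bases of the start of transcription the share was 74.4% (32 windows), against 5.31% of all windows and 3.57% of those of genes tested. CCAAT was found in 34 windows (79.1%), against 37.4% of all. Both elements were present in 31 windows (72.1%), against 7.52% of all windows. Neither was found in 5 windows (11.6%), those of Nuf2, Nusap1, Mad2l1, Pttg1 and Birc5, against 50.9% of all. The Pttg1 window lies inside the gene as annotated by GENCODE. So do windows of other genes, among them Kif2c, Cdca8, Cdca3 and Kif4, whose windows held a CHR. The 25 bases after the start of transcription held a CHR in 15 of 43 windows (34.9%), and the 25 bases that begin 75 bases upstream held CCAAT in 17 (39.5%). These shares describe letters in fixed windows, with no test, and no factor's binding was measured.

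**Figure D1:**
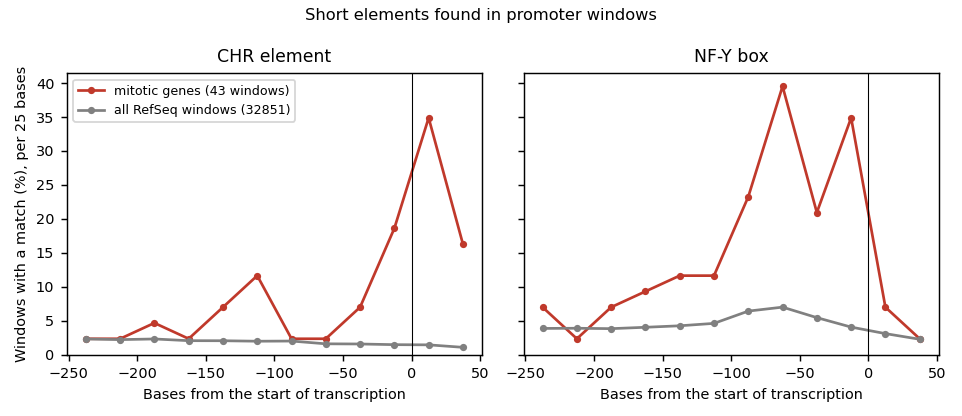
Percent of promoter windows with a match (y axis) in each stretch of 25 bases, by distance from the start of transcription in bases (x axis), for the CHR element on the left and the NF-Y (CCAAT) box on the right. The red line gives the 43 windows of the mitotic genes and the grey line all 32851 RefSeq windows. The red CHR line reaches 34.9% just after the start and the red NF-Y line 39.5% upstream of it.

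Reads assigned to genes ranged from 45018389 to 47349648 in the TBK1-DKO libraries and from 31077585 to 36145508 in the WT libraries, a mean depth 1.37 times higher in TBK1-DKO. Tbk1 itself was counted at 83.9, 79.2 and 83.8 CPM in TBK1-DKO and at 90.7, 80.8 and 83.7 CPM in WT (log2 fold change -0.05, SE 0.06, adjusted p = 0.63). The 2 groups overlapped, and since a count over a whole gene need not fall when only part of it is deleted, it does not check the labels. Markers of conventional dendritic cells were counted in both groups, and their calls went in both directions, as given below. Flt3, the receptor for the dendritic cell growth factor, was at 149 ± 3.25 CPM in TBK1-DKO and 148 ± 1.996 CPM in WT (SD, n = 3) and was not called. Itgax, which encodes CD11c, was at 343 ± 10.2 in TBK1-DKO and 394 ± 14.6 in WT and was called lower (adjusted p = 0.030). The number of genes called over all genes was 3402 with all libraries, 4352 without TBK1-DKO 2, 3026 without WT 1 and 6897 without both.

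Of the 49 mitotic genes, 48 were higher in TBK1-DKO and 1, Pttg1, was lower. Over all genes tested, 23.6% (3402 genes) were called, 13.7% (1978 genes) higher and 9.9% (1424 genes) lower, at an adjusted p under 0.05 (edgeR quasi-likelihood test, Benjamini-Hochberg over all genes tested). When library differences in the effect of transcript length and GC content were fitted, the split over all genes turned to 2485 higher and 2782 lower (47.2% higher, against 58.1% without that fit), while the mitotic genes stayed at 48 and 1. The median log2 fold change of the 49 was 0.75, a 1.68-fold difference, beside a median of 0.00 and a 5th to 95th percentile range of -0.55 to 0.71 over all genes tested. All 48 also passed an adjusted p under 0.01, beside 8.83% of all genes tested that were higher at that threshold. The higher genes spanned a narrow range, from 0.47 (1.38-fold) for Cdc25b to 1.09 (2.13-fold) for Kif18b. A difference of at least 1.5-fold was reached by 39 of them, beside 5.62% of all genes tested, and one of at least 2-fold by 3, Ccnf, Ube2c and Kif18b, beside 2.01%. Among the 100 genes with the smallest p-values of the 14388 tested were 6 of the 49, and the best placed, Ccnf, ranked 34th. The 3 TBK1-DKO libraries did not overlap the 3 WT libraries for any of the 49 genes. Over all genes tested, 21.5% lay apart with TBK1-DKO higher and 19.5% with TBK1-DKO lower.

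**Figure D2:**
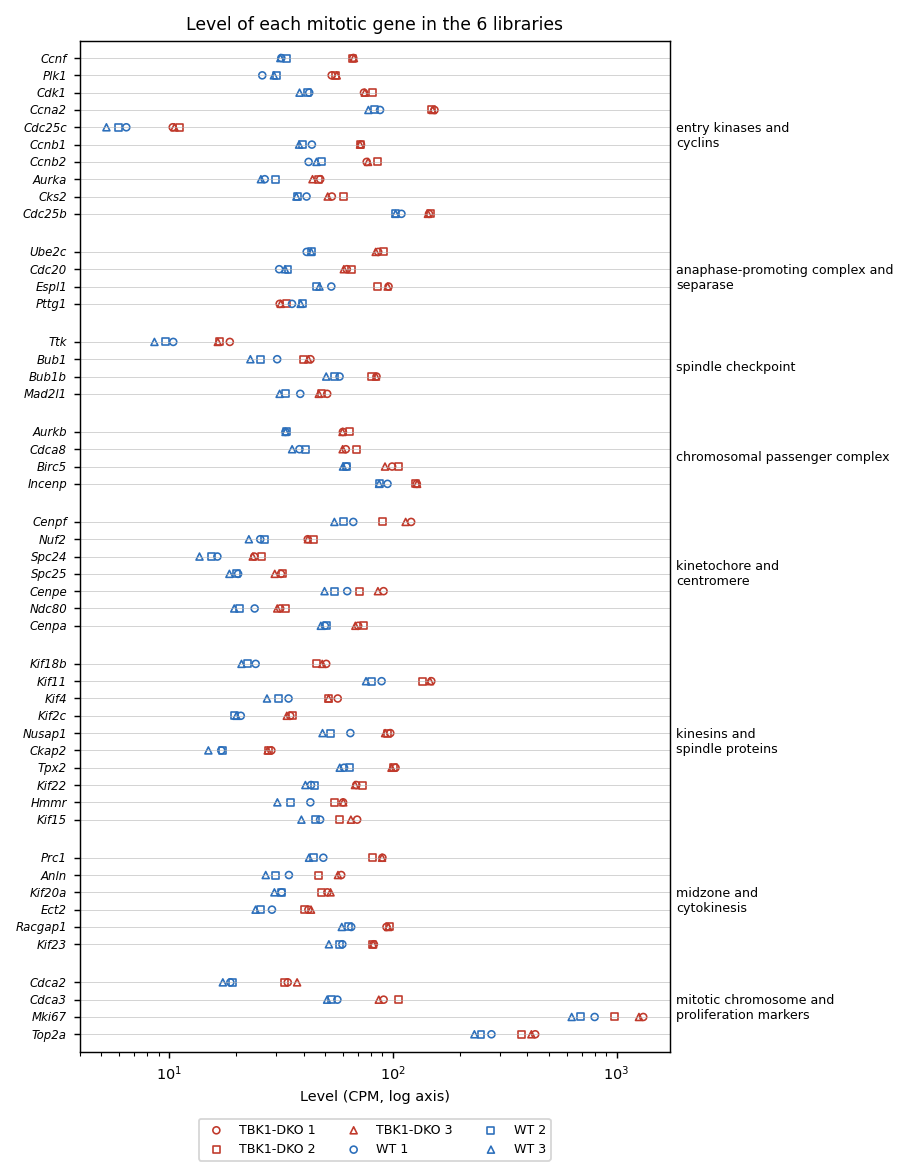
Level of each of the 49 mitotic genes in CPM (x axis, log scale) in the 3 TBK1-DKO libraries (red) and the 3 WT libraries (blue), grouped by role; each symbol is 1 library. Red symbols lie to the right of blue ones in every row but that of Pttg1, where TBK1-DKO was at 31.3 to 33.7 CPM and WT at 35.5 to 39.6 CPM.

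Summed over the 49 genes, the level was 4997, 4538 and 4854 CPM in TBK1-DKO 1 to 3 and 3114, 2886 and 2692 CPM in WT 1 to 3. The lowest TBK1-DKO library stood above the highest WT library, and the ratio of the group means was 1.66. Mki67 alone made up 24.4% of the WT sum; without it the sums ran from 3558 to 3681 CPM in TBK1-DKO and from 2062 to 2316 CPM in WT, a ratio of 1.65. Per kilobase of the longest protein-coding transcript, WT levels ran from 3.03 CPM for Cdc25c to 70.1 CPM for Mki67, with a median of 13.9 CPM. The smallest count behind any value was 177 reads, for Cdc25c in 1 WT library.

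All 10 genes of mitotic entry were higher, with a median log2 fold change of 0.85. Ccnf encodes cyclin F, the substrate receptor of a ubiquitin ligase that limits centrosome duplication and ribonucleotide reductase. It was at 66.6, 66.3 and 67.1 CPM in TBK1-DKO and at 31.8, 33.7 and 31.5 CPM in WT (log2 fold change 1.04, SE 0.06, adjusted p = 1.9e-06). The 3 TBK1-DKO libraries nearly coincided for Ccnf, and the fold change was 2.06. Cdk1, the kinase that drives entry into mitosis, was at 74.4, 81.1 and 75.1 CPM in TBK1-DKO and at 42.4, 41.5 and 38.4 CPM in WT (0.92, SE 0.06, adjusted p = 7.5e-06). Its partner Ccnb1, cyclin B1, was at 72.1, 72.0 and 71.5 CPM against 43.5, 39.6 and 38.2 CPM (0.83, SE 0.06). For both genes the gap between the groups was wider than the spread within either. The second B-type cyclin, Ccnb2, rose by a log2 fold change of 0.82 (SE 0.07), and Ccna2, cyclin A2, which acts from S phase to early mitosis, by 0.87 (SE 0.06). Plk1, the kinase that matures centrosomes and helps to activate CDK1, was at 53.4, 55.4 and 56.2 CPM against 26.1, 30.2 and 29.5 CPM (0.94, SE 0.07), and Aurka, the kinase of the spindle poles, rose by 0.74 (SE 0.07).

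The 2 CDC25 phosphatases of the list, which remove the inhibitory phosphates from CDK1, had estimates of different size, though the difference between them was not tested. Cdc25c rose by a log2 fold change of 0.86 (SE 0.10) from a low WT level of 5.26 to 6.46 CPM to 10.4 to 11.2 CPM. Cdc25b was at 145, 147 and 144 CPM in TBK1-DKO and at 109, 103 and 103 CPM in WT (0.47, SE 0.05, adjusted p = 1.6e-04). This was the smallest rise among the 48 genes, although its libraries lay close together within each group. Cks2, a small protein that docks CDK1 on phosphorylated substrates, rose by 0.51 (SE 0.08), with TBK1-DKO at 51.2 to 60.0 CPM and WT at 37.1 to 41.2 CPM.

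Among the genes of anaphase onset, the 2 that drive APC/C activity and separase rose while securin fell. Ube2c, the ubiquitin-conjugating enzyme that starts chains for the APC/C, was at 86.1, 90.9 and 84.0 CPM in TBK1-DKO and at 41.3, 43.5 and 43.2 CPM in WT (log2 fold change 1.03, SE 0.06). Cdc20, the APC/C activator, was at 62.4, 65.7 and 60.5 CPM against 31.1, 34.1 and 33.04 CPM. Espl1, separase, the protease that cuts cohesin, was at 95.8, 85.5 and 94.97 CPM against 53.2, 45.5 and 47.1 CPM (0.92, SE 0.07). The lowest TBK1-DKO library for Espl1 still lay far above the highest WT library. Pttg1, securin, which binds and inhibits separase until the APC/C marks it for destruction, was at 31.3, 33.7 and 31.6 CPM in TBK1-DKO and at 35.5, 39.6 and 38.8 CPM in WT. The groups did not overlap but came close, and the log2 fold change was -0.24 (SE 0.07, 95% interval -0.39 to -0.09, adjusted p = 0.027). That call was lost when TBK1-DKO 1, TBK1-DKO 3, WT 2 or WT 3 was left out (adjusted p = 0.11, 0.095, 0.11 and 0.087), and the fold change stayed negative each time. Pttg1 lies at chr11:43420250-43426251 (GRCm38), and none of the 4 other tested genes within 1 Mb was called in either direction.

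The 4 spindle checkpoint genes rose, with a median log2 fold change of 0.63. Ttk, the MPS1 kinase that recruits the checkpoint to unattached kinetochores, was at 18.7, 16.9 and 16.6 CPM in TBK1-DKO and at 10.5, 9.63 and 8.62 CPM in WT (0.86, SE 0.09). Mad2l1, which encodes MAD2, the protein that sequesters CDC20, was at 51.0, 48.2 and 46.8 CPM against 38.6, 33.2 and 31.3 CPM (0.50, SE 0.08, adjusted p = 0.0015). For both genes WT 1 was the highest WT library and lay nearest to the TBK1-DKO libraries. Bub1, a kinase that marks the centromere, and Bub1b, which encodes the checkpoint protein BUBR1, lay between them at 0.65 (SE 0.09) and 0.61 (SE 0.06).

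The chromosomal passenger complex corrects wrong attachments, and all 4 of its genes rose (median 0.71). Its kinase, Aurkb, was at 59.9, 64.2 and 59.7 CPM in TBK1-DKO and at 33.2, 33.5 and 33.2 CPM in WT. The scaffold of the same complex, Incenp, was at 128, 126 and 129 CPM against 94.8, 87.5 and 86.9 CPM, a smaller log2 fold change of 0.51 (SE 0.06). Libraries within a group were close for both genes. The 95% interval of Aurkb lay above the median of the 49 genes and that of Incenp below it. The targeting subunits Birc5, which encodes survivin, and Cdca8, which encodes borealin, rose by 0.69 (SE 0.06) and 0.73 (SE 0.07).

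Of the kinetochore and centromere genes, 7 of 7 rose, with a median of 0.67. Cenpa, the histone H3 variant that marks the centromere, was at 70.1, 74.1 and 68.1 CPM in TBK1-DKO and at 49.8, 50.6 and 47.8 CPM in WT (0.52, SE 0.06). The NDC80 complex, which grips the microtubule end, has 4 subunits, and all 4 were in the list: Ndc80 rose by 0.56, Nuf2 by 0.77, Spc24 by 0.69 and Spc25 by 0.67. Cenpf, a large protein of the outer kinetochore, was at 121, 90.4 and 114 CPM against 66.7, 60.3 and 54.9 CPM (0.84, SE 0.11, adjusted p = 3.8e-04). Cenpe, a kinesin that carries chromosomes to the spindle equator, was at 91.0, 70.9 and 85.9 CPM against 62.6, 54.7 and 49.6 CPM (0.57, SE 0.11, adjusted p = 0.0031). TBK1-DKO 2 was well below the other TBK1-DKO libraries for both Cenpf and Cenpe, and for Cenpe it came close to the highest WT library.

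All 10 kinesins and spindle proteins rose (median 0.77), and 9 of them lay between 0.55 and 0.81. Kif18b, a kinesin that shortens astral microtubules, was at 50.5, 45.7 and 48.5 CPM in TBK1-DKO and at 24.4, 22.5 and 21.1 CPM in WT (1.09, SE 0.07, adjusted p = 6.5e-06). Each of its TBK1-DKO libraries lay far above all WT libraries, and its 2.13-fold difference was the largest fold change of the 49 genes. Kif11, the motor that pushes the spindle poles apart, was at 149, 136 and 147 CPM against 89.2, 80.5 and 76.0 CPM (0.81, SE 0.07). Kif15, which can share that work, rose by 0.55 (SE 0.09), with TBK1-DKO at 58.0 to 69.4 CPM and WT at 39.1 to 47.4 CPM. The chromokinesins Kif22 and Kif4, which push chromosome arms, rose by 0.71 and 0.79, and Kif2c, which depolymerises microtubules at the centromere, by 0.78. Among proteins that are not motors, the microtubule nucleation factor Tpx2 rose by 0.73, the microtubule bundler Nusap1 by 0.78, the spindle protein Hmmr by 0.69 and the spindle pole protein Ckap2 by 0.77.

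All 6 genes of the spindle midzone and cytokinesis rose (median 0.69). Prc1, which crosslinks antiparallel microtubules at the midzone, was at 89.95, 81.4 and 89.6 CPM in TBK1-DKO and at 48.99, 44.3 and 42.3 CPM in WT (0.95, SE 0.07). The centralspindlin complex is formed by the kinesin Kif23 and by Racgap1, which rose by 0.54 and 0.61. Kif23 was at 82.4, 81.6 and 81.8 CPM against 59.6, 57.6 and 51.9 CPM. The 3 TBK1-DKO libraries for Kif23 nearly coincided. Kif20a, a kinesin that brings Aurora B to the midzone, rose by 0.70, Ect2, the exchange factor that activates RhoA at the division site, by 0.67, and the ring scaffold Anln by 0.83.

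The 4 mitotic chromosome genes rose (median 0.78). Mki67, which coats mitotic chromosomes and is widely used as a proliferation marker, was at 1316, 980.2 and 1259 CPM in TBK1-DKO and at 798, 689 and 630.2 CPM in WT (0.75, SE 0.12, adjusted p = 0.0013). TBK1-DKO 2 was the lowest of its group and WT 1 the highest of its own, and this gave Mki67 one of the widest intervals of the 49 genes. Top2a, the topoisomerase that untangles sister chromatids, was at 433, 375 and 416 CPM against 276, 248 and 232 CPM (0.70, SE 0.08). Cdca2, which brings protein phosphatase 1 to chromatin at mitotic exit, rose by 0.91, and Cdca3, a cell cycle gene linked to the destruction of WEE1, by 0.82.

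**Figure D3:**
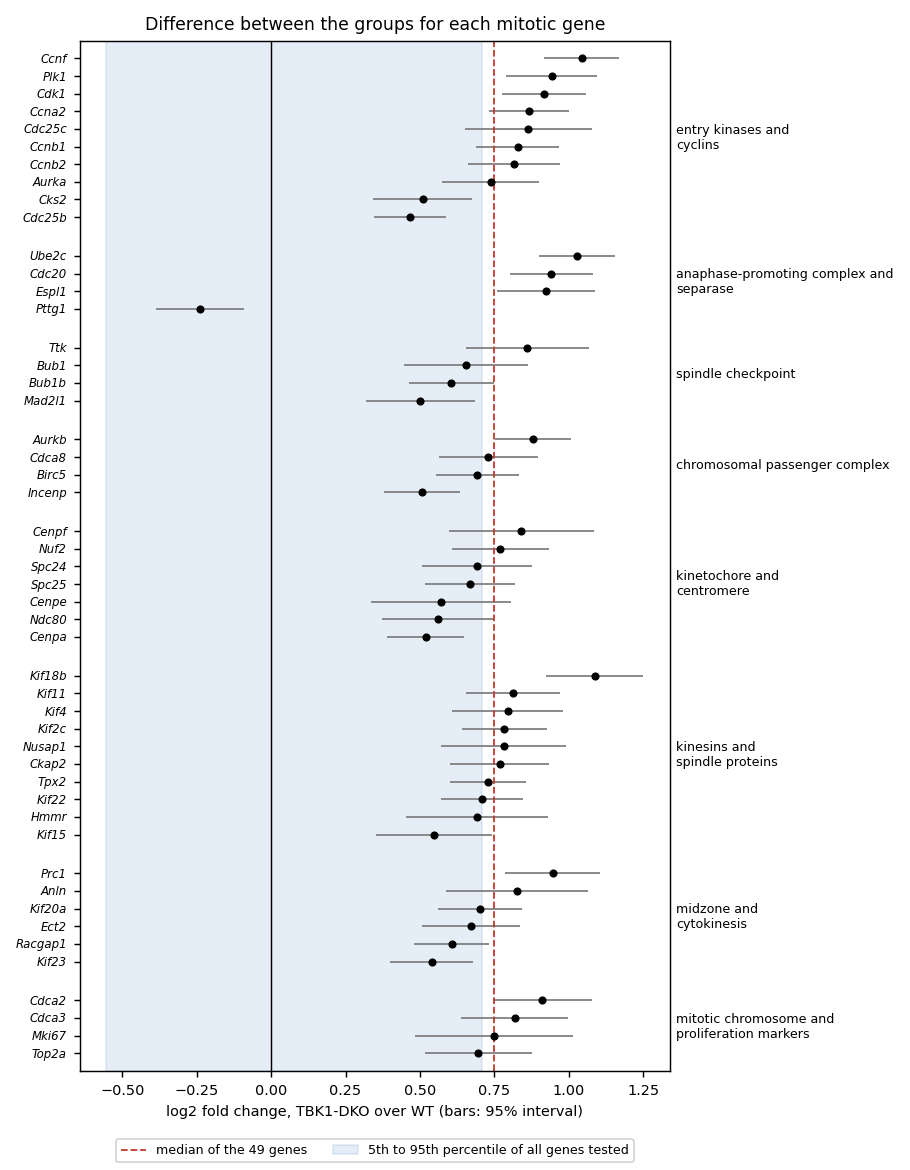
The log2 fold change of TBK1-DKO over WT (x axis) of each of the 49 genes, grouped by role; points are estimates and bars 95% intervals, the dashed line is the median of the 49 (0.75) and the shaded band the 5th to 95th percentile of all genes tested (-0.55 to 0.71). Intervals of 9 genes lie wholly above the dashed line and those of 9 genes wholly below it, and Pttg1 alone lies below 0.

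The estimates varied among the 49 genes. The 95% interval lay above the median of the 49 for Cdk1, Ccnf, Plk1, Ube2c, Cdc20, Espl1, Aurkb, Kif18b and Prc1. It lay below for Cks2, Cdc25b, Pttg1, Mad2l1, Incenp, Cenpa, Kif15, Kif23 and Racgap1, and included it for the other 31. Across the 49 genes, Spearman's rho of the log2 fold change was 0.03 with transcript length and 0.34 with GC content. It was -0.23 with mean CPM in WT, which also enters the fold change. These points share the same 6 libraries, and genes are not independent replicates. Exons of 10 of the genes overlap a protein-coding gene on the opposite strand, among them Ube2c with Tnnc2, Cdc20 with Elovl1, Prc1 with Rccd1 and Ccna2 with Exosc9. Whether the counts used strand is not given in the sources used here, so reads from such pairs may not be separated.

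Differences between libraries of one group varied with transcript length and with GC content. WT 1 was the highest WT library for 34 of the 49 genes, and WT 3 the lowest for 41. TBK1-DKO 2 was both the highest library of its group for 20 genes and the lowest for another 20. Of the 10 longest genes (transcripts of at least 4605 bases) TBK1-DKO 2 was lowest for 8, and of the 10 shortest (at most 1945 bases) it was highest for 9. Across the 49 genes, the deviation of TBK1-DKO 2 from the other TBK1-DKO libraries had a Spearman's rho of -0.79 with transcript length, and that of WT 1 from the other WT libraries one of 0.58. With GC content, rho was 0.34 for TBK1-DKO 2 and -0.59 for WT 1. For WT 3 it was -0.46 with length and 0.65 with GC content. With TBK1-DKO 2 and WT 1 left out, 48 genes were higher and Pttg1 lower, with a median of 0.78. TBK1-DKO 2 had the lowest mitotic sum of its group and WT 1 the highest of its own. Leaving both out therefore widens the gap in that sum by the choice of libraries, and it is no check on the rise. With length and GC offsets the counts were the same and the median was 0.76.

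Beyond the 49, 179 other cell cycle genes were tested in 8 lists. Of these, 118 were called higher and 1 lower, and 60 were not called; their median log2 fold change was 0.40, beside 13.7% called higher and 9.9% called lower over all genes tested. Of 33 further kinetochore and centromere genes, 25 were higher and none lower, with a median of 0.53. Oip5, which helps to load CENP-A, was at 10.1 ± 0.65 CPM in TBK1-DKO and 5.495 ± 0.39 CPM in WT (SD, n = 3), and Ska3, of the complex that tracks microtubule tips, and Cenpn, a reader of CENP-A nucleosomes, rose by 0.68 and 0.62. Exons of Oip5 overlap those of Nusap1 on the opposite strand, so reads of Oip5 may not be separated from those of Nusap1, which had a higher level. Of 30 other spindle, centrosome and motor genes, 21 were higher and none lower, with a median of 0.60. The minus-end motor Kifc1 rose by 0.94, the centrosomal kinase Nek2 by 0.77, and the augmin subunit Haus8 by 0.88. Of 18 cohesin and condensin genes, 11 were higher and none lower. Those with the smallest p-values were the condensin subunits Ncapd2 (0.73) and Ncaph (0.64) and Cdca5 (0.77), which encodes sororin; Smc1a, Smc3, Stag1 and Stag2 were not called. The count of 11 was 7 without TBK1-DKO 1, WT 2 or WT 3, and 18 in TBK1-DKO 1 and 3 against WT 2 and 3. In that last comparison 3500 of all 14456 genes tested were called higher.

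Among the genes of the APC/C, the calls of the largest size were of its regulators. Of 17 core subunits and inhibitors, 5 were called higher and 1 lower, with a median of 0.10. Fbxo5, which encodes the APC/C inhibitor EMI1, was at 42.8 ± 0.27 CPM in TBK1-DKO and at 23.2 ± 2.17 CPM in WT (0.88). Fzr1, the activator CDH1, rose by 0.69, and Ube2s, which extends ubiquitin chains, by 0.41. The other calls were of core subunits and were small: Anapc5 and Cdc23 at 0.19 each, and Anapc10 at -0.32. The call of Anapc5 was lost with any 1 library left out (adjusted p = 0.067 to 0.14). That of Cdc23 was lost without TBK1-DKO 1, TBK1-DKO 3, WT 2 or WT 3 (0.14 to 0.20), and that of Anapc10 without TBK1-DKO 1, TBK1-DKO 3, WT 1 or WT 3 (0.094 to 0.13). Exons of Cdc23 overlap those of Kif20a on the opposite strand, so their reads may not be separated. The list had 3 genes higher without TBK1-DKO 1, TBK1-DKO 3, WT 2 or WT 3, and also with upper-quartile factors, with no filter on low counts and with reads thinned to WT depth. It had 4 genes lower in TBK1-DKO 1 and 3 against WT 2 and 3, where 3397 of all 14456 genes tested were called lower. The other 11 core subunits were not called.

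Of 13 genes of the DREAM complex with FOXM1 and B-MYB, 8 were higher and none lower, with a median of 0.27. Mybl2, which encodes B-MYB, was at 53.7 ± 1.27 CPM in TBK1-DKO and at 28.5 ± 1.44 CPM in WT (0.91, SE 0.06, adjusted p = 6.5e-06). Foxm1 was at 55.9 ± 3.76 against 31.7 ± 2.11 CPM (0.82, SE 0.07), and the E2F partner Tfdp2 rose by 0.57. The count of 8 was 5 without TBK1-DKO 1, TBK1-DKO 3 or WT 3. It was also 5 with limma-voom, RLE or upper-quartile factors, a filter of 50 counts in 3 libraries, thinned reads or no robust option, and 7 with DESeq2. Of 12 mitotic exit and WEE1 family genes, 4 were higher: the CDK1-inhibiting kinases Wee1 (0.63) and Pkmyt1 (0.58), the phosphatase Cdc25a (0.46) and Mastl (0.71), the Greatwall kinase, which was named after its value was seen. The phosphatase subunits of that list, Ppp2ca, Ppp2r2a, Ppp2r2d and Ppp1cc among them, were not called, and its median was 0.06.

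Most of the listed genes of earlier cell cycle phases were also higher. Of 35 DNA replication genes, 29 were higher and none lower, with a median of 0.41. Pcna, which had the highest mean level of that list, Gins4, Pola1, Pold1, Rfc3 and Rfc4 were not called. The ribonucleotide reductase subunit Rrm2 rose by 0.71, the maintenance methylation factor Uhrf1 by 0.62 and the origin licensing factor Cdc6 by 0.64. Of 21 G1 cyclins, E2F factors and CDK inhibitors, 15 were higher and none lower, with a median of 0.43. Ccnd2, Cdk4, Cdk6, Cdkn1b, Cdkn1c and Trp53 were not called. E2f2, an activator, was at 263 ± 2.79 CPM against 161 ± 1.46 CPM (0.71), the late-acting repressor E2f8 rose by 0.98 and the CDK4/6 inhibitor Cdkn2c by 0.75. At a fold of at least 1.5, 4 of the 35 replication genes and 6 of the 21 G1 genes were higher, against 39 of the 49 mitotic genes; the difference between these lists was not tested.

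**Figure D4:**
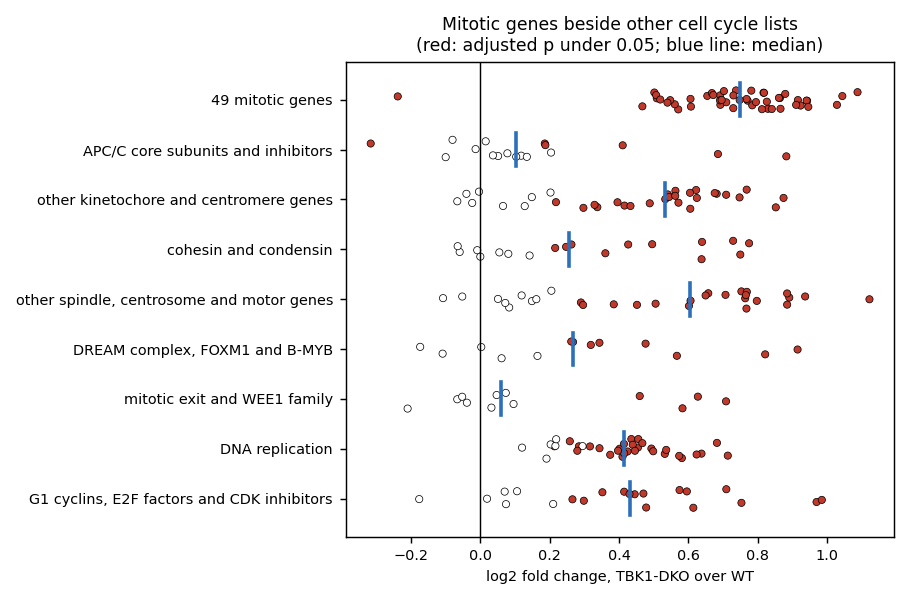
The log2 fold change of TBK1-DKO over WT (x axis) of the 49 mitotic genes and of the genes in 8 other cell cycle lists (rows); each point is 1 gene, red where its adjusted p was under 0.05, and blue bars are medians. The medians run from 0.75 for the 49 genes to 0.06 for the mitotic exit and WEE1 family list, and 2 red points lie below 0, Pttg1 and Anapc10.

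Markers of cell types other than dendritic cells differed between the groups beside the mitotic genes. Their counts stand beside the 13.7% called higher and 9.9% called lower over all genes tested. All 11 erythroid precursor markers tested were higher, with a summed level of 3693 to 3992 CPM in TBK1-DKO and 2113 to 2374 CPM in WT, a ratio of 1.73; Slc4a1, the red cell anion exchanger, was at 1589 ± 76.2 against 861 ± 41.6 CPM, and Hba-a1 and Hba-a2 were at 0 or 1 read. All 12 neutrophil precursor markers were higher (6105 to 7053 against 2513 to 2778 CPM, a ratio of 2.42). The highest mean levels in that list were those of S100a9, Ngp and Ltf. Mpo, myeloperoxidase, which had the smallest p-value of the list, was at 197 ± 6.20 against 50.9 ± 3.66 CPM. Of 9 haematopoietic progenitor markers 7 were higher (241 to 261 against 178 to 197 CPM, a ratio of 1.36). The megakaryocyte list had 4 of 6 higher (34.0 to 35.1 against 19.9 to 21.9 CPM, a ratio of 1.64). Plasma cell markers were higher in 7 of 9 (2185 to 2359 against 1423 to 1580 CPM, a ratio of 1.5), and germinal centre B cell markers in 5 of 8, with 1 lower, Gcsam (152 to 160 against 137 to 140 CPM, a ratio of 1.13). The ratio of the mitotic sum, 1.66, lay between those of the erythroid precursor (1.73) and the megakaryocyte (1.64) lists.

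The remaining marker lists were not higher in TBK1-DKO. Conventional dendritic cell markers summed to 10218 to 11560 CPM in TBK1-DKO and 10442 to 11746 CPM in WT, and the groups overlapped (a ratio of 0.96). Of the 12, 2 were higher, Zbtb46 (log2 fold change 0.35) and Clec4a4 (0.37), a share near that over all genes tested. Another 4 were lower, Itgax, Xcr1, Clec9a and Itgae. The 2 higher calls fell to 1 without TBK1-DKO 1 or WT 2 and to 0 without WT 3, and rose to 4 in TBK1-DKO 1 and 3 against WT 2 and 3. The 4 lower calls became 7 in that comparison and with length and GC offsets. Of all 14456 genes tested in that comparison, 3500 were called higher and 3397 lower. With the offsets, 2485 of 14388 were called higher and 2782 lower. Plasmacytoid dendritic cell markers were lower in 5 of 6 (707 to 740 against 940 to 955 CPM), 3 of 6 without WT 2. B cell markers were lower in 4 of 8 (a ratio of 0.84), and in 7 of 8 with length and GC offsets or in TBK1-DKO 1 and 3 against WT 2 and 3. Lower calls were also made for T cell markers in 6 of 8 (0.88) and NK cell markers in 5 of 6 (0.68). Macrophage markers were lower in 7 of 7 (a ratio of 0.71), and in 4 of 7 without TBK1-DKO 1, TBK1-DKO 3, WT 2 or WT 3. Within WT the order of libraries by the mitotic sum, WT 1 above WT 2 above WT 3, was also that of the erythroid (2374, 2245 and 2113 CPM), neutrophil (2778, 2692 and 2513 CPM), progenitor (197, 180 and 178 CPM), plasma cell (1580, 1486 and 1423 CPM), megakaryocyte (21.9, 21.6 and 19.9 CPM) and NK cell (234, 213 and 201 CPM) sums. Of these, the NK cell sum was lower in TBK1-DKO and the others were higher. In TBK1-DKO the mitotic sum was lowest in TBK1-DKO 2, as were the erythroid, progenitor, megakaryocyte and germinal centre B cell sums. All other marker sums were highest there, the neutrophil sum among them. The part of these cell types in the rise of the mitotic genes was not tested.

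**Figure D5:**
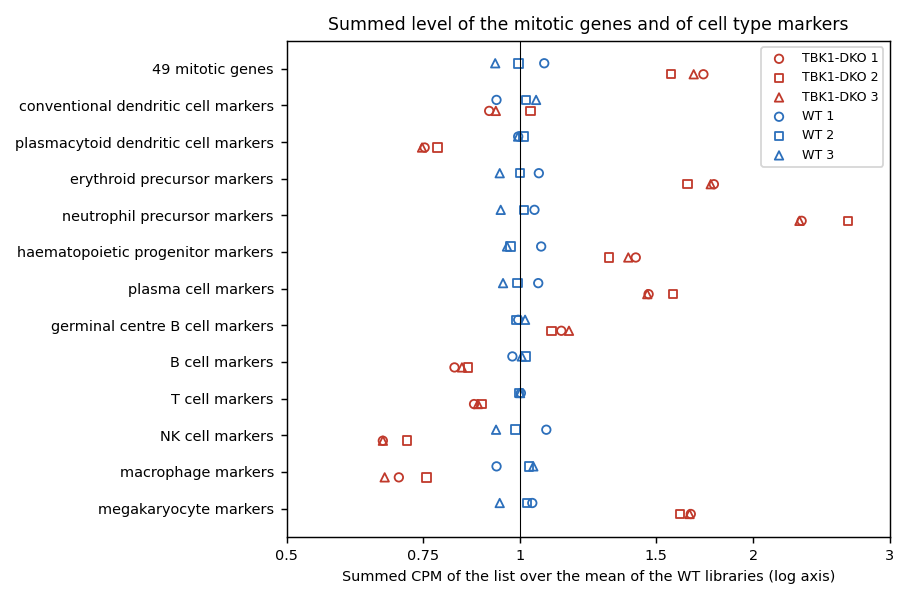
Summed CPM of the 49 mitotic genes and of each cell type marker list (rows), divided by the mean of the 3 WT libraries (x axis, log scale); each symbol is 1 library, TBK1-DKO in red and WT in blue. The mitotic, erythroid precursor, neutrophil precursor and megakaryocyte rows lie to the right of 1.5 in every TBK1-DKO library, and the conventional dendritic cell row overlaps between the groups.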

How the data were processed

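RNA was sequenced from splenic dendritic cells, 3 TBK1-DKO and 3 WT libraries. The authors deposited raw read counts per gene symbol, 1 file a library. Per the submitters' processing notes, the tools included TopHat, TopHat2, HTSeq and DESeq2, with the mm10 build; versions, settings and the strand option are not stated in these notes. The summary rows at the end of each file (8.2% to 10.72% of reads) named no gene and were left out.

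The counts were fitted here with edgeR 4.0.16 (R 4.3.3): filterByExpr with a minimum count of 10, TMM factors, robust glmQLFit and glmQLFTest, no covariates, and Benjamini-Hochberg adjustment over the 14388 genes tested, called at an adjusted p under 0.05. CPM used TMM-scaled library sizes. Standard errors were derived from the F statistic, and intervals are 95%. DESeq2 1.42.0 and limma-voom 3.58.1 were alternatives, with other scalings, filters, offsets and left-out libraries. The steps were tested on simulated data. Positions and lengths came from a GENCODE annotation of GRCm38, in which 21777 symbols matched directly and 1278 through a synonym. Promoters came from RefSeq. The genes and lists were chosen with earlier results of these data known. The text names all 49 genes, and of each other cell cycle list the called genes with the 3 smallest p-values and those that fell. For some lists, genes that were not called are also named.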

Additional observations from a re-analysis of the deposited data

How the results depend on the processing

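The count of mitotic genes called higher was 48 under every alternative that kept the 0.05 threshold (DESeq2, limma-voom, RLE and upper-quartile factors, other filters, thinned reads, offsets, left-out libraries) and at an adjusted p under 0.01, and 39 when a fold of at least 1.5 was also required. The median log2 fold change of the 49 ran from 0.68 without WT 3 to 0.79 without WT 1. Mitotic genes called lower numbered 0 to 1 with 1 library left out, 0 at an adjusted p under 0.01 and 0 at 1.5-fold, and the log2 fold change of Pttg1 ran from -0.33 to -0.22. For the 179 other cell cycle genes, leaving out 1 library gave 96 to 118 higher and 0 to 2 lower. For these genes, TBK1-DKO 1 and 3 against WT 2 and 3 gave 140 higher and 7 lower, and length and GC offsets gave 131 and 3. An adjusted p under 0.01 gave 92 higher and 0 lower, and 1.5-fold gave 48 and 0. Over all genes, TBK1-DKO 1 and 3 against WT 2 and 3 gave 3500 higher and 3397 lower, an adjusted p under 0.01 gave 1270 and 726, and 1.5-fold gave 808 and 464. With the replicate number as a block, 48 mitotic genes were higher and 1 lower, the other cell cycle genes were 125 higher and 1 lower, and 4086 genes were called in all. Same-numbered libraries had correlations of deviations of 0.18, 0.15 and -0.06, and not every library correlated best with its own number, so the numbers were not taken as a pairing. Depth set no limit for the 49 genes, whose smallest count was 177 reads.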
